A study of Mus musculus with 6 samples.

Results

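The T cell receptor signalling machinery was followed here as 38 genes: kinases, phosphatases, adaptors, second messenger enzymes, transcription factors and actin regulators that act downstream of the receptor. They were chosen by symbol, and all 38 were found among the 43629 genes of the count table. The cells were tumour-infiltrating T cells from pooled subcutaneous B16-OVA tumours, a mouse melanoma line that expresses ovalbumin, grown in C57BL/6 mice and harvested on day 14. By the design they were CD8+ and TCR+, by the protocol sorted on TCRB and CD3, and no further treatment or allele is labelled in either group. L-Pha is a lectin that binds branched N-glycans, and the sort on its binding gave 2 groups of 3 libraries, L-Pha low and L-Pha high. RNA was read by QuantSeq 3' sequencing, which gives about 1 read position per transcript, so that CPM, the counts scaled to library size, need no correction for gene length. Nothing in the labels ties the 3 libraries of a group to separate tumour pools, and p-values therefore measure the spread between libraries, which may be technical.

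When the receptor meets its antigen, the kinase Lck phosphorylates the receptor's CD3 and zeta chains, Zap70 docks on them, and Zap70 phosphorylates the adaptors Lat and Lcp2 (SLP-76). On that scaffold Plcg1 makes second messengers that open the calcium, Ras and NF-kB branches, while Vav1 and Was link it to the actin skeleton. Phosphatases, the ubiquitin ligase Cblb and the diacylglycerol kinases hold the same steps in check, and in tumours CD8+ T cells depend on this balance to respond to antigen.

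Library totals ran from 2610729 to 3521117 counts, and the 38 members together took 0.0905% to 0.166% of them. The 10 T cell identity genes (the CD3 chains, Cd247, Cd8a, Cd8b1, Cd2 and the receptor constant genes) took 0.0301% to 0.0768% of the counts. Cd8a had 153 to 625 counts a library and Trbc2, a constant gene of the receptor's beta chain, 205 to 612, whereas Trac, that of the alpha chain, had 0 to 3. Cd4 and Foxp3 together reached at most 2.78 CPM, and the 3 NK cell markers Ncr1, Klrb1c and Klra8 at most 3.24 CPM. The 5 melanoma markers (Dct, Pmel, Mlana, Tyr and Tyrp1) took 0.861% to 1.68% of the counts. In each group, library 3 had the least T cell identity and the most melanoma signal. In such bulk libraries, fewer T cells and less RNA per T cell cannot be told apart.

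No member passed the test between L-Pha high and L-Pha low cells. Of the 37 members with enough counts to be tested, 17 had a higher and 20 a lower point value in L-Pha high, beside 49.3% and 50.7% of all genes tested. The members had a median log2 fold change of -0.04, against -0.01 over all 11183 genes. edgeR's quasi-likelihood test with Benjamini-Hochberg adjustment called 0 of the 37, and the lowest adjusted p was 1.0. DESeq2 and limma-voom also called 0. Over all genes edgeR called 1 gene, or 0.00894%, so a count of 0 among the members was no departure from the background. These fits, and every SE and interval given here, take no account of the libraries' numbers, which may or may not mark shared pools. With the numbers as a block edgeR called 20 genes higher and 23 lower, and 0 of them were members. Without the block, 2 members had an unadjusted p under 0.05 by edgeR, 1 by DESeq2 and 2 by limma-voom. Over all genes these were 423 of 11183 by edgeR (3.78%), 406 of 21866 by DESeq2 and 420 of 11183 by limma-voom. The split of point values depended on the scaling: it was 25 higher and 12 lower when libraries were scaled by their totals alone, which moved the median of all genes to 0.10. It was 28 and 9 when libraries were scaled by their T cell identity counts, where the median of all genes was 0.02.

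The negative regulators held both ends of the range. Ubash3b (Sts-1), a phosphatase that dampens Zap70 and related kinases, stood highest, with a log2 fold change of 0.65, and Dgka, a lipid kinase that removes diacylglycerol, stood lowest, at -0.90. These were the 2 of 37 members whose groups did not overlap, 1 in each direction, beside 8.41% of all genes tested, 4.23% upwards and 4.18% downwards.

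Ubash3b (ENSMUSG00000032020, GRCm38 chromosome 9, 41011098 to 41161697) was measured at 62.5, 54.9 and 37.3 CPM in the L-Pha low libraries and at 76.7, 97.9 and 68.0 CPM in the L-Pha high libraries, each in the order 1, 2 and 3 that is kept throughout. Every L-Pha high library thus exceeded every L-Pha low library, although the gap between the closest pair was small beside the spread within each group. The means were 51.5 ± 12.9 and 80.9 ± 15.4 CPM (SD, n = 3 each), a 1.57-fold difference (SE 0.262 on the log2 scale, 95% interval 0.09 to 1.21). Its unadjusted edgeR p was 0.027 and its adjusted p 1.0. The point value stayed above 0 in all 17 alternative analyses, from 0.47 without L-Pha low 3 to 0.81 without L-Pha low 1. Where groups do not overlap, leaving out libraries can hardly turn the sign, and the other alternatives reuse the same libraries. The kept sign is therefore no independent support. Ubash3b is expressed in several blood cell types, and the 7 macrophage markers summed to 129, 170.2 and 216 CPM in the L-Pha low libraries and to 266, 179.6 and 242 CPM in the L-Pha high libraries. Their part in the Ubash3b values was not tested.

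Dgka (ENSMUSG00000025357, chromosome 10, 128720141 to 128744056) had 29, 21 and 17 counts in the L-Pha low libraries and 14, 12 and 15 in the L-Pha high libraries. Scaled to depth these were 9.38, 7.29 and 6.34 CPM against 3.73, 3.62 and 5.00 CPM. All L-Pha high libraries lay below all L-Pha low libraries, on counts of at most 29. The means were 7.67 ± 1.56 and 4.11 ± 0.767 CPM (SD, n = 3 each), 1.87-fold higher in L-Pha low (SE 0.417 on the log2 scale, interval -1.80 to -0.01). Its unadjusted edgeR p was 0.0485 and its adjusted p 1.0. The sign held in all 17 alternatives, from -1.17 to -0.73, and the unadjusted p was under 0.05 in 6 of them. As for Ubash3b, the kept sign follows largely from groups that do not overlap and is no independent support.

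**Figure D1:**
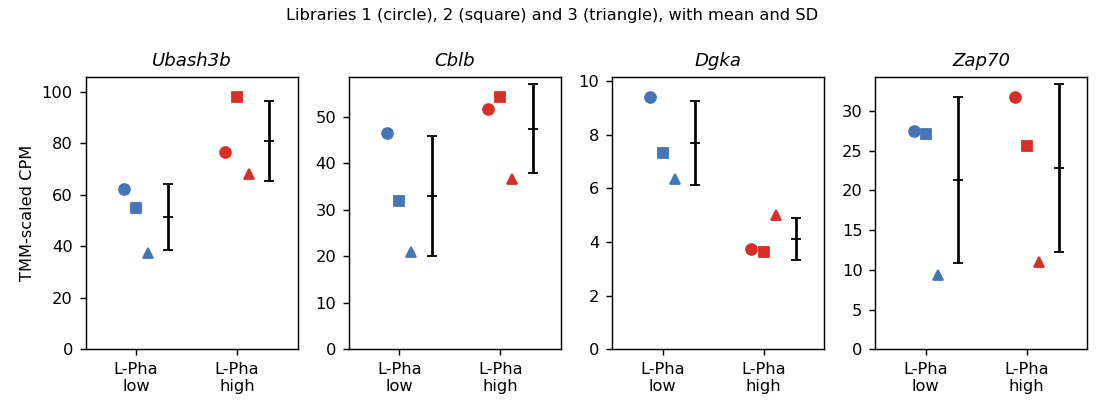
TMM-scaled CPM (vertical axes, each from 0) of Ubash3b, Cblb, Dgka and Zap70 in each library, L-Pha low in blue and L-Pha high in red, with the mean and SD of the 3 libraries in black. Ubash3b and Dgka do not overlap between groups, Cblb and Zap70 do, and in both groups Zap70 is lowest in library 3, at 9.32 and 10.99 CPM.

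The start regions of these 2 genes are shown because they are the members furthest apart in opposite directions. Each line gives the 250 bases before the RefSeq transcription start that lies nearest the 5′ end of the gene model (GRCm38.p6, minus strand, 5′ to 3′). Capitals mark GGAAA, the core of the site that NFAT proteins bind, or TTTCC, the same core on the other strand. The Ubash3b start lies 3635 bases inside the gene model and the Dgka start 20 bases from its end.
Ubash3b chr9:41158063-41158312: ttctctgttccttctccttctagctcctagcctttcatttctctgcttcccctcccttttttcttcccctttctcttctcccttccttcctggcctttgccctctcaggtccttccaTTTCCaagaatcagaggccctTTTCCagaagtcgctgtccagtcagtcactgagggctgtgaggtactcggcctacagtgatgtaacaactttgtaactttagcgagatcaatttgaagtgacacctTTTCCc
Dgka chr10:128744077-128744326: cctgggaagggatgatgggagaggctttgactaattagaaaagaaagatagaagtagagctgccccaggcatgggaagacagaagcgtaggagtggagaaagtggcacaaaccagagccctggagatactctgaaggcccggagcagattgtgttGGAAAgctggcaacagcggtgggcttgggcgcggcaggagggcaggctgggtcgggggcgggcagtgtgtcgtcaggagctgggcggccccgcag
The Ubash3b window held the core 3 times and the Dgka window once. The windows of Itpkb, Nfatc2, Ppp3cb and Zap70, members with small point values on both sides of 0, also held it 3 times. Among the 32 members with an entry, 20 held GGAAA on either strand (62.5%), against 55.6% of the 32851 windows of all genes. The kappa-B consensus was in 1 of 32, Bcl10 (3.12%), against 3.90%, and CAGGAAG, a form of the site of ETS factors, was in 7 (21.9%), against 10.8%. A kappa-B match can contain GGAAA. A match describes letters in the window and does not show that a factor binds there.

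Among the other 7 negative regulators 3 point values were above 0 and 4 below. Cblb, the ubiquitin ligase that makes T cell activation depend on CD28 costimulation, is singled out here after its values were seen. It had 46.6, 32.0 and 20.9 CPM in the L-Pha low libraries and 51.7, 54.2 and 36.6 CPM in the L-Pha high libraries. The groups overlapped through L-Pha high 3, which lay below L-Pha low 1. Its log2 fold change was 0.52 (SE 0.306, interval -0.14 to 1.17, edgeR adjusted p = 1.0) and ranged from 0.28 without L-Pha low 3 to 0.85 without L-Pha low 1. Ptpn6 (SHP-1), a phosphatase of the receptor-proximal kinases, had a log2 fold change of 0.35 (SE 0.315), and Dgkz, the zeta diacylglycerol kinase, 0.05 (SE 0.308). On the other side of 0 lay Csk, which phosphorylates the inhibitory tail tyrosine of Lck, at -0.19 (SE 0.342), and its partner phosphatase Ptpn22 at -0.24 (SE 0.409). The transmembrane adaptor Sit1 lay at -0.06 (SE 0.45). Ubash3a (Sts-2), the relative of Ubash3b, lay at -0.27 on 1.12 to 5.21 CPM a library, and its interval of -1.54 to 1.00 held values on both sides of 0.

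**Figure D2:**
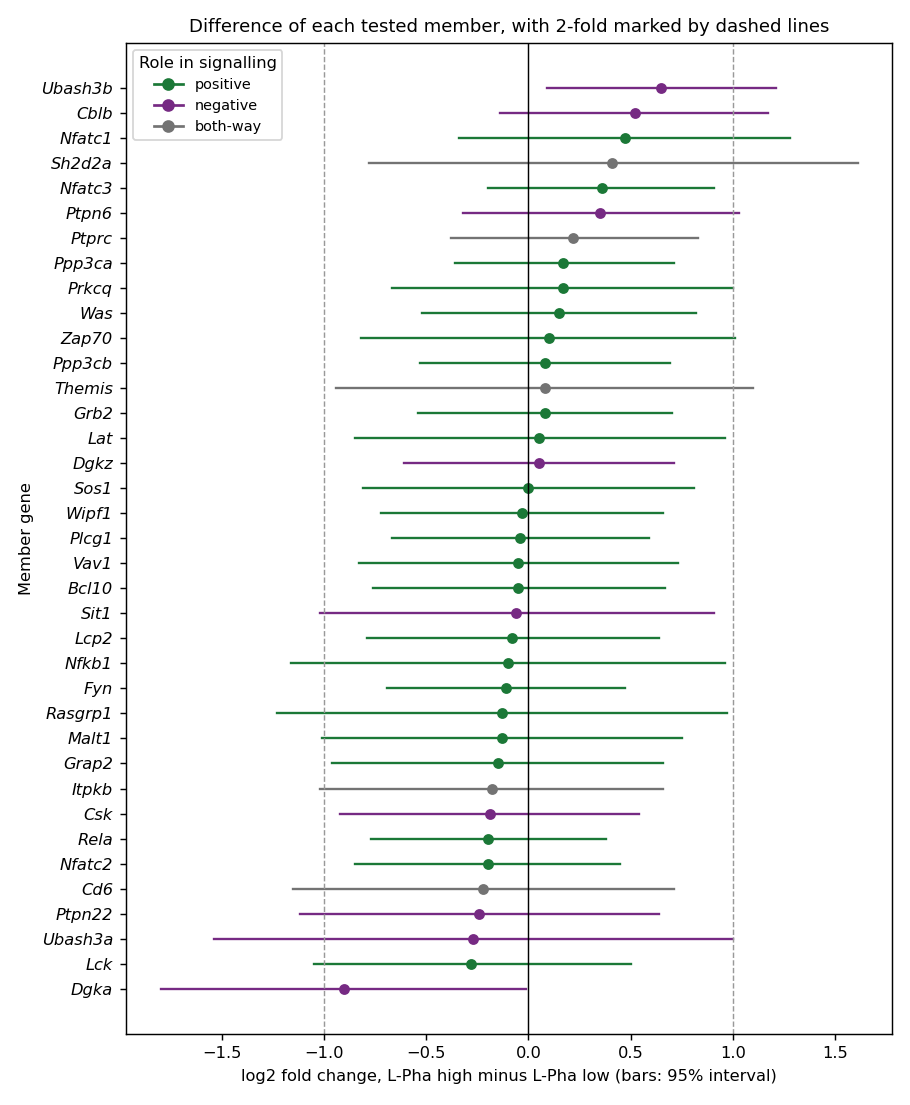
log2 fold change (horizontal axis, L-Pha high minus L-Pha low) of the 37 tested members, ordered by value, with the 95% interval of the edgeR fit as bars, positive regulators in green, negative in purple and both-way in grey. Dashed lines mark 2-fold. The intervals of Ubash3b and Dgka alone leave out 0, and the 3 colours are mixed along the order.

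The kinases at the receptor and CD45 had 2 higher and 2 lower point values, from -0.28 to 0.22. Ptprc (CD45), the phosphatase that removes the inhibitory phosphate from Lck and can also act against it (ENSMUSG00000026395, chromosome 1, 138062861 to 138175708), was at 179.9, 148.3 and 100.3 CPM in the L-Pha low libraries and 165.1, 220.0 and 115.3 CPM in the L-Pha high libraries. The groups overlapped, with library 3 the lowest of each. The means were 143 ± 40.1 and 167 ± 52.4 CPM (SD, n = 3 each), and the log2 fold change was 0.22 (SE 0.283, adjusted p = 1.0 by edgeR). Lck, which starts the cascade, spanned 3.16-fold within L-Pha low, where library 3 was at 31.7 CPM, and ran from 40.3 to 74.1 CPM in L-Pha high. The log2 fold change was -0.28 (SE 0.361). Its value was -0.62 without L-Pha low 3 (edgeR adjusted p = 0.423) and 0.05 without L-Pha low 1. Zap70, the kinase recruited to the receptor chains, was at 27.5, 27.1 and 9.32 CPM in the L-Pha low libraries and 31.7, 25.6 and 10.99 CPM in the L-Pha high libraries. The difference between libraries 3 and the other libraries of a group was larger than that between groups, whose log2 fold change was 0.10 (SE 0.427). Fyn, the Lck relative found in most cell types, had 25.6 to 42.6 CPM over all libraries and a log2 fold change of -0.11 (SE 0.269).

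The adaptors, which tether enzymes to the activated receptor, had 4 higher and 3 lower point values among the 7 tested, with a median of 0.05. Grb2, which brings Sos1 to phosphorylated Lat (ENSMUSG00000059923, chromosome 11, 115644045 to 115708597), was at 183, 131 and 84.3 CPM in the L-Pha low libraries and 172, 141 and 107 CPM in the L-Pha high libraries. All L-Pha high values lay inside the L-Pha low range. The means were 133 ± 49.6 and 140 ± 32.3 CPM (SD, n = 3 each), and the log2 fold change was 0.08 (SE 0.289, adjusted p = 1.0 by edgeR). Lat, the membrane scaffold, ran from 18.3 to 73.1 CPM in L-Pha low and 31.0 to 76.8 CPM in L-Pha high (log2 fold change 0.05, SE 0.423). The cytosolic scaffold Lcp2 lay at -0.08 (SE 0.333) and Grap2 (GADS), which joins Lcp2 to Lat, at -0.15 (SE 0.377). Sh2d2a (TSAd), an Lck-binding adaptor, had the widest span of the members, 6.51-fold from L-Pha low 3 at 23.5 CPM to L-Pha high 1 at 153 CPM. Its log2 fold change of 0.41 had an interval of -0.78 to 1.61. Themis, an adaptor of thymocyte selection, lay at 0.08 (SE 0.475), and Cd6, a surface receptor that docks signalling proteins, at -0.22 (SE 0.435). Trat1 (TRIM), an adaptor that associates with the receptor complex, had 1 count in L-Pha high 1 and 0 in the other 5 libraries, where 0 allows up to 3 counts each. It was not tested.

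Enzymes and exchange factors of the second messenger step had point values from -0.18 to 0.00. Plcg1, the phospholipase that makes inositol trisphosphate and diacylglycerol (ENSMUSG00000016933, chromosome 2, 160731300 to 160775760), was at 70.2, 43.1 and 33.9 CPM in the L-Pha low libraries and 53.3, 52.1 and 37.98 CPM in the L-Pha high libraries. All L-Pha high values lay inside the L-Pha low range, and the log2 fold change was -0.04 (SE 0.293, interval -0.67 to 0.59, edgeR adjusted p = 1.0). The Rac exchange factor Vav1 lay at -0.05 (SE 0.365). For the Ras exchange factors the values were 0.00 for Sos1 (SE 0.378) and -0.13 for Rasgrp1 (SE 0.514), which diacylglycerol recruits. Rasgrp1 spanned 3.36 to 13.9 CPM within L-Pha low alone. Itpkb, which phosphorylates inositol trisphosphate, lay at -0.18 (SE 0.393).

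In the NF-kB arm 1 of 5 point values was above 0 and 4 were below. Rela, the p65 subunit of NF-kB (ENSMUSG00000024927, chromosome 19, 5637483 to 5648130), was at 62.1, 66.7 and 42.5 CPM in the L-Pha low libraries and 46.9, 63.0 and 39.6 CPM in the L-Pha high libraries. The groups overlapped, at 57.1 ± 12.8 and 49.8 ± 11.9 CPM (SD, n = 3 each), and the log2 fold change was -0.20 (SE 0.268, adjusted p = 1.0 by edgeR). Nfkb1, which encodes the p105 and p50 subunit, spanned 5.3-fold over the libraries, from 5.12 CPM in L-Pha high 2 to 27.2 CPM in L-Pha high 1, so both extremes lay in 1 group. Prkcq, the protein kinase C theta that starts this arm, lay at 0.17 (SE 0.390). Bcl10 and Malt1, which act together upstream of NF-kB, lay at -0.05 (SE 0.333) and -0.13 (SE 0.411).

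The calcineurin and NFAT genes had 4 point values above 0 and 1 below, with a median of 0.17. Ppp3ca, a catalytic subunit of calcineurin (ENSMUSG00000028161, chromosome 3, 136670124 to 136937727), was at 65.4, 49.3 and 77.9 CPM in the L-Pha low libraries and 69.8, 63.0 and 84.3 CPM in the L-Pha high libraries. The groups overlapped, and library 3 was the highest of each, unlike in most members. The means were 64.2 ± 14.3 and 72.3 ± 10.9 CPM (SD, n = 3 each), and the log2 fold change was 0.17 (SE 0.250, adjusted p = 1.0 by edgeR). The summed melanoma markers were likewise highest in library 3, at 15010 CPM in L-Pha low and 15800 CPM in L-Pha high. Their part in the Ppp3ca values was not tested. Nfatc3 had 38.5 to 54.4 CPM in L-Pha low and 43.7 to 66.0 CPM in L-Pha high (0.36, SE 0.259). Nfatc1, the family member that activated T cells induce, had 8.58 to 19.4 and 12.3 to 28.0 CPM (0.47, SE 0.376). Ppp3ca, Nfatc1 and Nfatc3 kept a value above 0 in all 17 alternatives, with ranges of 0.01 to 0.34, 0.19 to 0.73 and 0.23 to 0.53, and none passed the test in any. The alternatives reuse the same libraries, so the kept sign is no independent support. Ppp3cb, the other catalytic subunit, lay at 0.08 (SE 0.285) and Nfatc2 at -0.20 (SE 0.304).

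Of the actin regulators, Was (WASP), which drives actin branching at the contact with the target cell, lay at 0.15 (SE 0.313). Its binding partner Wipf1 (WIP; ENSMUSG00000075284, chromosome 2, 73429610 to 73529734) was at 53.1, 56.6 and 21.3 CPM in the L-Pha low libraries and 42.9, 45.8 and 40.0 CPM in the L-Pha high libraries. The L-Pha high libraries lay inside the L-Pha low range, with means of 42.9 ± 2.91 and 43.6 ± 19.5 CPM (SD, n = 3 each), and the log2 fold change was -0.03 (SE 0.323, adjusted p = 1.0 by edgeR).

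**Figure D3:**
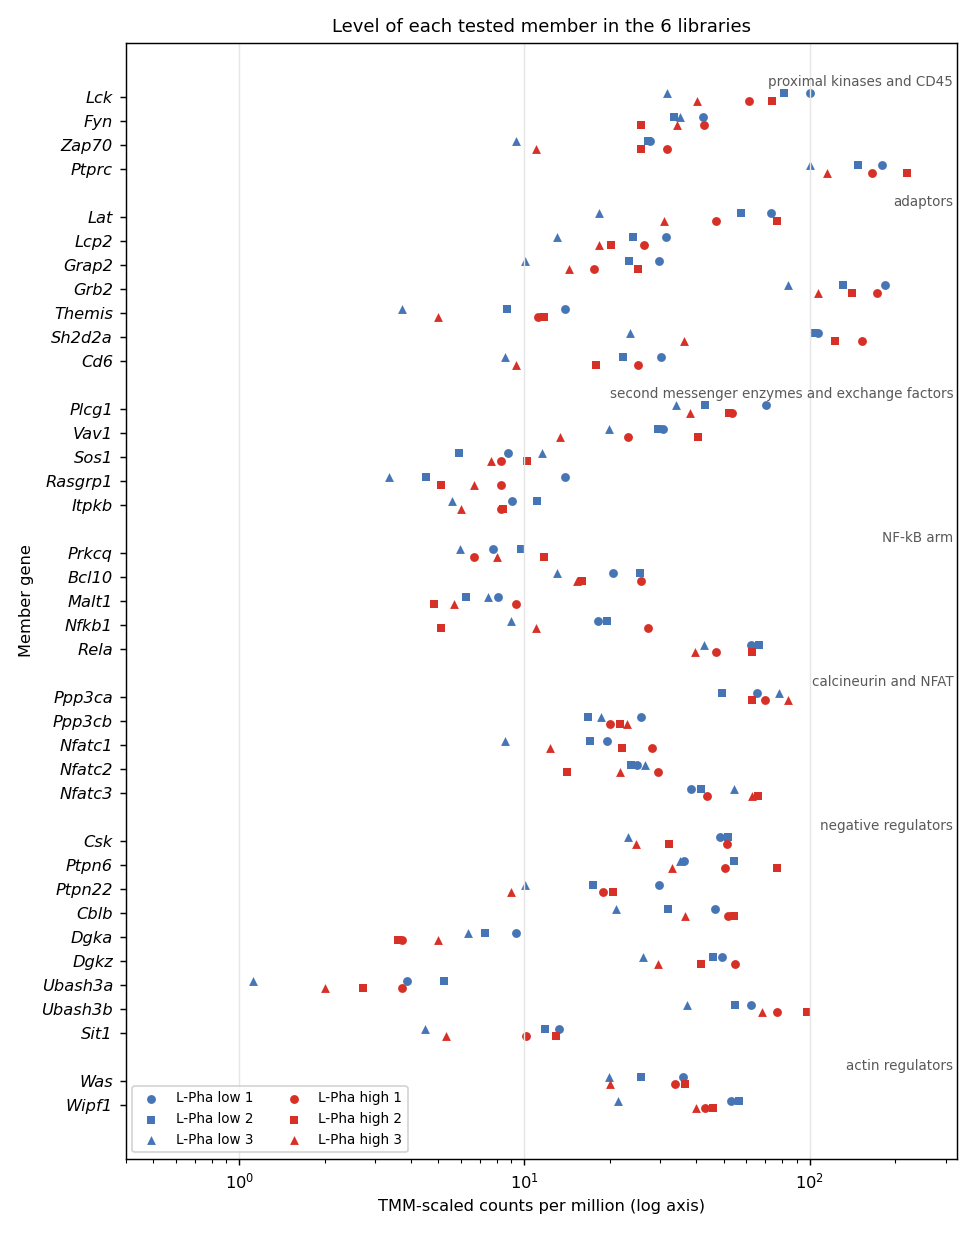
TMM-scaled CPM (horizontal log axis) of the 37 tested members in the 6 libraries, grouped by role, with L-Pha low in blue, L-Pha high in red, and circles, squares and triangles for libraries 1, 2 and 3. Blue and red overlap in 35 members, and in 26 the triangle of each colour lies to the left of the other symbols of the same colour.

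Set against each other, positive and negative regulators both had point values on either side of 0, and a difference between them was not tested. The 23 positive regulators had 10 higher and 13 lower point values, a median of -0.04 and a range of -0.28 to 0.47. The 9 negative regulators had 4 higher and 5 lower, a median of -0.06 and a wider range, -0.90 to 0.65. Of the 6 members that can act both ways (Ptprc, Cd6, Themis, Sh2d2a, Itpkb and Trat1), 5 were tested, with 3 higher, 2 lower and a median of 0.08. The signs of these medians depended on the processing: with scaling by library totals the positive and negative medians were 0.08 and 0.05, and without L-Pha low 3 they were -0.22 and -0.39. Summed over genes, the positive regulators had 795 ± 209 CPM in L-Pha low and 802 ± 118 CPM in L-Pha high, and the negative regulators 248 ± 73.2 and 292 ± 69.7 CPM (SD, n = 3 each). The ratio of the negative to the positive sum, in which a library's share of T cells enters both parts, was 0.303, 0.343 and 0.286 in the L-Pha low libraries and 0.368, 0.396 and 0.32 in the L-Pha high libraries. The groups overlapped through L-Pha high 3 and L-Pha low 2, with means of 0.361 ± 0.0386 in L-Pha high and 0.310 ± 0.0295 in L-Pha low (SD, n = 3 each). Between libraries of the same number the ratio was higher in L-Pha high each time. The labels do not say that a number marks a shared pool, and this difference was not tested. The negative sum includes Ubash3b, the member with the highest fold change, with means of 51.5 CPM in L-Pha low and 80.9 CPM in L-Pha high. The ratio is thus not independent of that gene.

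The libraries numbered 3 stood further from the others than the groups did from each other. In both groups library 3 was below libraries 1 and 2 for 26 of the 37 members, against 19.6% of all genes, and the median log2 difference of libraries 3 from libraries 1 and 2 was -0.71 over the members and 0.03 over all genes. The counts are given by how widely a member is expressed. Of the 10 tested members largely limited to T and NK cells (Lck, Zap70, Lat, Grap2, Prkcq, Themis, Sit1, Cd6, Ubash3a and Sh2d2a), 9 were lowest in both libraries 3, with a median of -1.36. For the 14 members of blood cells in general it was 11, with a median of -0.70, and for the 13 members of most cell types 6, with a median of -0.53. By role it was 1 of 5 calcineurin and NFAT genes, 2 of 5 in the NF-kB arm, 3 of 5 at the second messenger step, 3 of 4 proximal kinases and CD45, 7 of 7 adaptors, 8 of 9 negative regulators and 2 of 2 actin regulators, and differences between these counts were not tested.

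Summed, the T and NK members reached 406, 350.4 and 117 CPM in the L-Pha low libraries and 368, 381 and 163 CPM in the L-Pha high libraries, a 3.48-fold span. The sums of blood cell members spanned 2.03-fold and those of members of most cell types 1.47-fold. Beside them, the T cell identity genes summed to 729.8, 885 and 293 CPM in the L-Pha low libraries and to 547, 659 and 383 CPM in the L-Pha high libraries, a 3.02-fold span. The melanoma markers took 0.934%, 0.861% and 1.54% of the counts in the L-Pha low libraries and 1.12%, 1.28% and 1.68% in the L-Pha high libraries. The part of melanoma content in the members' values was not tested. With the T cell identity level as a covariate, 27 members had a higher and 10 a lower point value, beside a median of 0.02 over all genes. In that fit edgeR called 0 members, and the lowest adjusted p was 0.315, for Ubash3b. The T cell identity genes themselves had 8 of 9 point values below 0 in L-Pha high (median -0.34, range -0.57 to 0.27), 0 of them at an unadjusted edgeR p under 0.05. Divided by the T cell identity sum, the T and NK members stood at 0.557, 0.396 and 0.398 in the L-Pha low libraries and at 0.672, 0.578 and 0.424 in the L-Pha high libraries, and the groups overlapped.

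**Figure D4:**
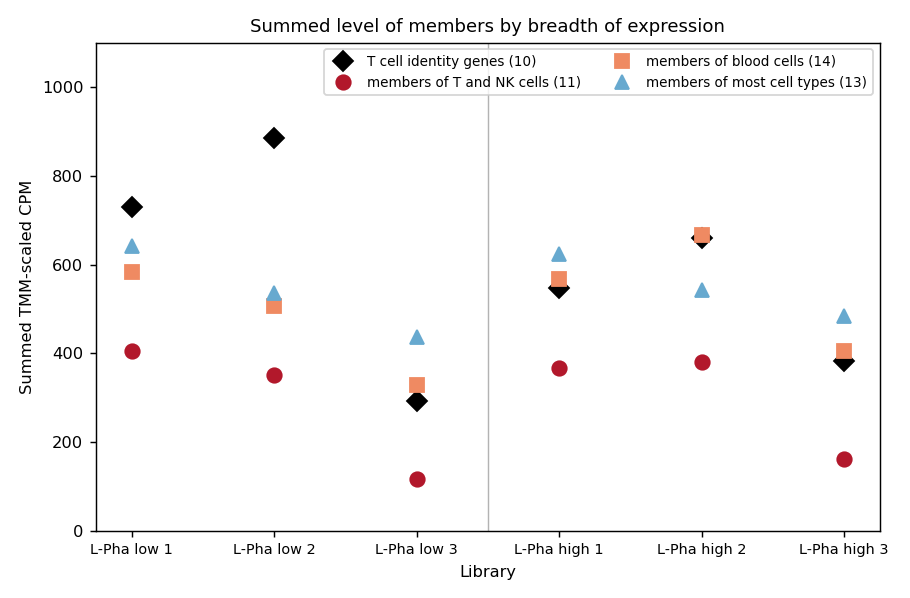
Summed TMM-scaled CPM (vertical axis) in each library (horizontal axis) of the T cell identity genes and of the members grouped by how widely they are expressed, with L-Pha low left of the grey line. In both groups all 4 sums are lowest in library 3, with the members of T and NK cells at 117 and 163 CPM there.

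Of 76 further genes of the same pathway, 72 were tested: 37 had a higher and 35 a lower point value, with a median of 0.01, and edgeR called 0. At an unadjusted edgeR p under 0.05 there was 1 in each direction, beside 3.78% of all genes tested. Groups did not overlap for 1 tested gene in each direction, beside 8.41% of all genes tested. Skap1, an adaptor that couples the receptor to integrins, was at 32.0, 34.7 and 19.4 CPM in the L-Pha low libraries and 17.0, 18.4 and 15.3 CPM in the L-Pha high libraries. The groups did not overlap (log2 fold change -0.76, SE 0.298, edgeR unadjusted p = 0.0225, adjusted p = 1.0). Ppp3r1, the regulatory subunit of calcineurin, was at 167, 141 and 238 CPM in the L-Pha low libraries and 222, 287 and 303 CPM in the L-Pha high libraries. L-Pha low 3 overlapped with L-Pha high 1 (0.57, SE 0.247, edgeR unadjusted p = 0.0363, adjusted p = 1.0). Ppp3r1 shares 462 exon bases with Wdr92, whose count total was 158 against 4258 for Ppp3r1. Pdpk1, the kinase that activates Akt, was apart upwards at 22.4 ± 1.3 and 30.9 ± 4.00 CPM in L-Pha low and L-Pha high (0.47, SE 0.259), and Ptpn7, a phosphatase of MAP kinases, was at 26.6 ± 14.2 and 40.2 ± 8.23 CPM (0.59, SE 0.371). Rac2, a small GTPase of blood cells, was at 64.9 ± 34.2 and 39.5 ± 18.9 CPM (-0.71, SE 0.435), and Ikbkg (NEMO), the regulatory subunit of the IKK complex, at 8.26 ± 3.56 and 4.77 ± 2.27 CPM (-0.79, SE 0.488; all SD, n = 3 each).

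The 95% intervals stayed within 2-fold for 19 of the 37 members, 16 of them positive, 2 negative and 1 both-way, and reached 2-fold or more for 18. The median half-width of these intervals, which are not adjusted for the number of genes, was 0.77 on the log2 scale. A missed threshold does not show that the groups were alike.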

How the data were processed

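Poly(A) RNA of 6 libraries, 3 each of L-Pha low and L-Pha high T cells, was sequenced from the 3' end. The deposited counts are whole reads per gene. The authors used featureCounts 1.5.0-p3 with GRCm38 models (Ensembl 78) on the sense strand and counted multi-mapping and overlapping reads for every gene, per the file headers. Near-identical genes thus share reads. Among the members, Lck alone overlaps another gene's exons on its strand (25 bases with Mir8119, which had 0 counts). The submitters' processing notes list HISAT2 2.1.0 and the build hg19, whereas the header names GRCm38. The deposited log2 values (14293 symbols, 37 members) served 1 alternative; how the authors made them is not given in the sources used here. Symbols came from GENCODE M21, in which 97.3% of genes matched.

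Genes passing filterByExpr (11183) were TMM-scaled and compared by edgeR 4.0.16 (quasi-likelihood, robust, two-sided, group only, Benjamini-Hochberg over all of them, threshold 0.05) in R 4.3.3. SE is the absolute log2 fold change over the square root of F. The procedure was tested on simulated data, with 100 genes changed at each fold. It called 25% of those changed 2-fold and 84% of those changed 4-fold, with 8 false calls. No libraries of a group were identical or within sampling noise (chi-square per degree of freedom 13.3 to 31.4). Members, lists and roles were chosen with earlier results of these data known. Values of every library are given for members whose groups do not overlap or whose unadjusted p is under 0.05, and for the member of highest mean CPM in each role. The further pathway genes named are the 3 in each direction with the smallest p. Lck, Zap70, Lat, Sh2d2a, Nfkb1, Cblb and other members described beyond this were chosen after their values were seen. Alternatives (17, of which 1 was added after seeing the data) were other scalings, filters and tests (DESeq2 1.42.0, limma 3.58.1), T cell content, the libraries' numbers as a block, and leaving out libraries. No molecular identifiers are described. Promoter windows are from RefSeq, GRCm38.p6, with entries for 32 of 38 members.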

Additional observations from a re-analysis of the deposited data

How the results depend on the processing

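No member passed the test in any of the 17 alternatives, and the lowest adjusted p was 0.289, for Ubash3b. Ubash3b, Dgka, Cblb, Rela, Ppp3ca, Nfatc1 and Nfatc3 kept their direction in all 17, and the other 30 reversed in at least 1 (107 of 628 values). The alternatives reuse the same libraries, so a kept direction is no independent support for any of these members. For Ubash3b and Dgka, whose groups did not overlap, it adds especially little. Values that changed sign were, as log2 fold changes: with DESeq2's size factors Sos1 -0.01; with library totals alone Fyn 0.00, Lcp2 0.04, Plcg1 0.06, Vav1 0.04, Bcl10 0.09, Nfkb1 0.05, Sit1 0.05 and Wipf1 0.10. With T cell identity counts as the library size they were Lcp2 0.15, Grap2 0.08, Cd6 0.02, Plcg1 0.09, Sos1 -0.13, Rasgrp1 0.16, Itpkb 0.00, Bcl10 0.14, Nfkb1 0.16, Csk 0.02, Ubash3a 0.07, Sit1 0.16 and Wipf1 0.27, and with the T cell identity covariate Lcp2 0.08, Grap2 0.07, Cd6 0.05, Plcg1 0.05, Vav1 0.02, Sos1 -0.01, Rasgrp1 0.03, Bcl10 0.08, Nfkb1 0.07, Ubash3a 0.12, Sit1 0.19 and Wipf1 0.21. With limma-voom they were Plcg1 0.01, Rasgrp1 0.09 and Wipf1 0.09, and on the deposited log2 values Lcp2 0.03, Plcg1 0.04, Rasgrp1 0.17, Sit1 0.03 and Wipf1 0.13. Without both libraries numbered 3, an alternative added after seeing the data, they were Lat -0.07, Grb2 0.00, Vav1 0.08 and Ppp3cb -0.02. Leaving out each library in turn gave these ranges: Lck -0.62 to 0.05, Fyn -0.30 to 0.05, Zap70 -0.25 to 0.42, Ptprc -0.04 to 0.43, Lat -0.36 to 0.45, Lcp2 -0.35 to 0.23, Grap2 -0.48 to 0.18, Grb2 -0.16 to 0.38, Themis -0.27 to 0.58, Sh2d2a -0.01 to 0.82, Cd6 -0.58 to 0.18, Plcg1 -0.24 to 0.31, Vav1 -0.55 to 0.25, Sos1 -0.22 to 0.25, Rasgrp1 -0.46 to 0.76, Itpkb -0.40 to 0.04, Prkcq -0.11 to 0.35, Bcl10 -0.33 to 0.18, Malt1 -0.47 to 0.04, Nfkb1 -0.95 to 0.30, Ppp3cb -0.05 to 0.29, Nfatc2 -0.48 to 0.02, Csk -0.53 to 0.02, Ptpn6 -0.01 to 0.60, Ptpn22 -0.54 to 0.24, Dgkz -0.19 to 0.25, Ubash3a -0.66 to 0.15, Sit1 -0.39 to 0.22, Was -0.03 to 0.41 and Wipf1 -0.35 to 0.20. The cause of these changes was not tested.

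Over all genes the count called was 0 higher and 1 lower. It became 20 and 27 with no count filter, 8 and 20 with DESeq2, and 19 and 20 with the T cell identity covariate. The 1 lower call was lost (0) with library totals alone, T cell identity counts as the library size, limma-voom, and without both libraries numbered 3. Leaving out each library gave 0 to 1 higher and 0 to 7 lower, with the upper end without L-Pha low 3. The cause was not tested. Without L-Pha low 3, 10 members had a higher and 27 a lower point value; without L-Pha low 1 these were 29 and 8, and without L-Pha high 3, 28 and 9.

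Each library shares its number with 1 library of the other group, and the labels do not say whether the number marks a shared pool. Deviations from the group means correlated at 0.368, 0.0825 and 0.467 for the pairs numbered 1, 2 and 3. Pairs of unlike number ran from -0.44 to 0.126, and L-Pha low 2 correlated better with L-Pha high 1 (0.126) than with its own number. With a replicate block on the number, 20 genes were called higher and 23 lower, 0 of them members, and the values that changed sign were Plcg1 0.00, Rasgrp1 0.02 and Wipf1 0.06. At an unadjusted edgeR p under 0.05 the block gave 925 genes, against 423 without it. Members at that level were 4 with the block (Sh2d2a, Dgka, Ubash3b and Cblb) and 2 without it.

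Few counts limited some members: Trat1 had 1 count in all, and Ubash3a left the test under the filter of 5 CPM in 3 libraries.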
